A study of Sus scrofa with 15 samples.

Results

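Fatty acid synthesis, elongation and desaturation were followed through 4 enzyme genes in the backfat of Iberian pigs: ACACA, FASN, HACD3 and SCD5. They were chosen by name, as every probe set of the deposited array table whose annotated gene symbol was one of these 4. Each gene had 1 such probe set, so 4 of the 1260 named genes, 4 of the 3272 probe sets of the table, and 4 of the 3255 tested after the manufacturer's control probe sets were set aside, are described here.

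All 15 animals were castrated male Iberian pigs, a breed known for heavy fat deposition, and 1 array was hybridised per animal. The control group (n = 7) ate a standard diet with 3130 kcal per kg of feed. The high-oleic group (n = 8) ate a diet enriched in oleic acid with 3360 kcal per kg. The control animals received 10% more feed, which evened out energy and protein between the diets. The diets ran from 28 kg of live weight for 24 weeks, to slaughter at about 110 kg, and the inner layer of the backfat was taken next to the last rib. The labels used here give no age. The animals were separate individuals, so the spread between arrays of a group holds both animal and array variation.

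In fat tissue, new fatty acids are built from acetyl-CoA. Acetyl-CoA carboxylase, encoded by ACACA, makes malonyl-CoA, and fatty acid synthase, encoded by FASN, joins malonyl units into palmitate. Longer chains are made in the endoplasmic reticulum by an elongation cycle, in which HACD3 encodes a 3-hydroxyacyl-CoA dehydratase. Stearoyl-CoA desaturases, of which SCD5 is an isoform, then insert the double bond that turns stearate into oleate. In pigs, adipose tissue is the main site of this synthesis, and oleate is the main fatty acid of its fat. The comparison of diets asks how dietary oleic acid bears on expression in this tissue.

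The libraries had much in common beyond diet. Array medians lay between 6.39 and 6.67 on the log2 scale and arrays correlated with each other between 0.762 and 0.958. High-oleic animal 8 stood apart on the first component of expression, which held 23.3% of the variance. Control animal 5 weighed 133 kg, against at most 118 kg in the other control animals. The tissue label was checked on 14 adipocyte markers, of which only LEP, encoding leptin, and PNPLA2, the adipose triglyceride lipase, were in the table. LEP lay between 10.29 and 12.52 and PNPLA2 between 8.11 and 9.37 over the 15 animals. Every probe set of the table had 3 or more arrays at least 1.5-fold from its own median, so each of the 4 genes varied between animals by the make-up of the table.

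Of the 4 genes, ACACA varied most among animals relative to the other probe sets, and its values left a gap. In control animals its log2 signal was 4.07 at the lowest, 4.54 at the median and 6.22 at the highest. In high-oleic animals these values were 4.13, 4.59 and 5.82. No animal lay between 4.91 and 5.55, a gap of 0.64, where the next widest step between neighbouring animals was 0.36. Above the gap were control animals 5 and 6, at 6.22 and 6.17, and high-oleic animals 4, 6 and 7, at 5.55, 5.68 and 5.82. The other 10 animals, 5 of each diet, lay below it, so each diet had animals on both sides. The gap was noticed in the values and was not tested. From the lowest to the highest animal the signal spanned 4.46-fold. Its SD over the 15 animals, 0.75, was larger than that of 81.2% of the tested probe sets, against a median SD of 0.55. ACACA was also the dimmest of the 4 genes, with a mean of 4.93 over the 15 animals. Only 755 of the 3255 tested probe sets had a mean below 5, and ACACA was among them.

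FASN spanned 3.32-fold over the animals. It too had a gap, between control animal 4 at 9.52 and high-oleic animal 3 at 9.92. Control animals 1, 2 and 4 and high-oleic animals 1 and 2 lay below it. Control animals had a log2 signal of 9.30 at the lowest, 9.98 at the median and 10.79 at the highest, in control animal 6. High-oleic animals had 9.06 at the lowest, 10.15 at the median and 10.49 at the highest, in animal 8. High-oleic animals 1 and 2, at 9.06 and 9.29, stood below the other 6, which lay within 9.92 to 10.49. The SD of 0.54 over the 15 animals was close to the median of the table.

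HACD3 had the narrowest spread of the 4, at 2.61-fold and an SD of 0.44, larger than that of 19.3% of the tested probe sets. Its signal was 6.31, 6.93 and 7.69 at the lowest, median and highest control animal. In high-oleic animals it was 6.31, 6.96 and 7.48. The groups covered nearly the same range. The lowest values were those of control animal 7 and high-oleic animal 8, and the highest was that of control animal 4.

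SCD5 spread differently within the diets. In control animals its signal was 5.75 at the lowest, 6.07 at the median and 6.63 at the highest. In high-oleic animals it was 4.93, 5.998 and 6.87, so the high-oleic range extended beyond the control range on both sides. High-oleic animals 1, 2 and 7, at 4.93, 5.01 and 5.28, lay below every control animal, and animals 6 and 8, at 6.68 and 6.87, lay above every control animal. High-oleic animal 7 at 5.28 and the lowest control animal at 5.75 had no animal between them, so SCD5 had a gap as well. The SD was 0.74 in high-oleic and 0.31 in control animals, a ratio of 2.40. A ratio at least as large occurred in 4.67% of the tested probe sets, whose median ratio was 1.12. This difference in spread was noticed in the values and was not tested. For FASN, ACACA and HACD3 the ratio was 0.881, 0.785 and 0.983.

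**Figure D1:**
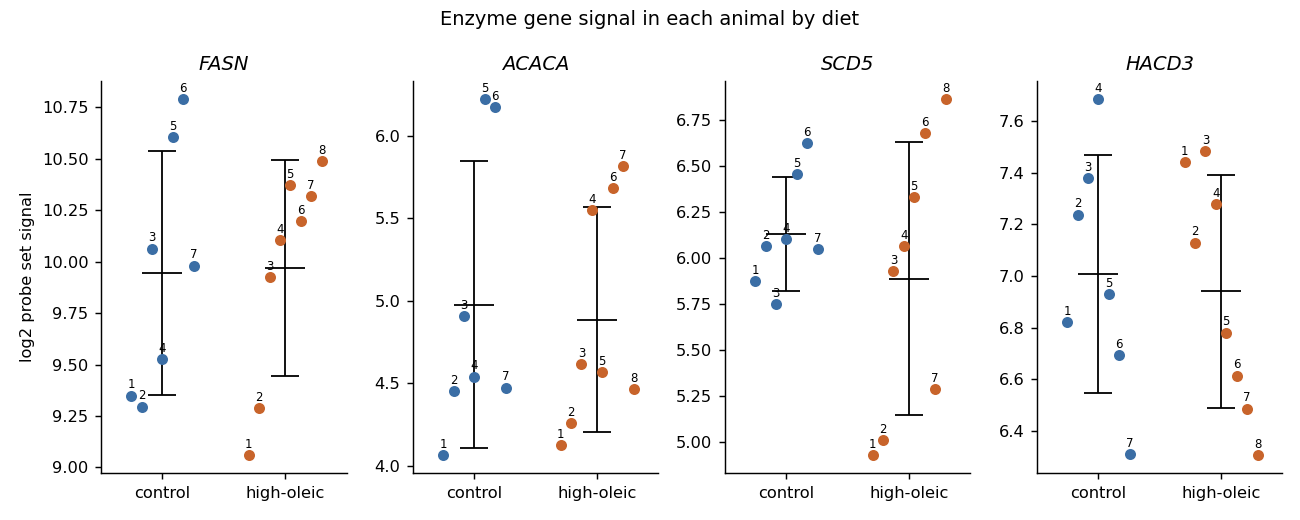
Log2 probe set signal of each gene in every animal, by diet, with the animal number above each point; the long bar is the group mean and the whiskers are 1 SD (control n = 7, high-oleic n = 8). The diets overlap for all 4 genes, ACACA has no animal between 4.91 and 5.55, and the high-oleic SCD5 values run from 4.93 to 6.87 around a narrower control range.

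The mean signal of the enzymes differed little between the diets, and no difference passed the test. ACACA, which commits acetyl-CoA to fatty acid synthesis, was 4.89 ± 0.68 (SD, n = 8) in high-oleic animals and 4.98 ± 0.87 (SD, n = 7) in controls, 0.939-fold with a 95% interval of 0.554 to 1.59. FASN was 9.97 ± 0.52 and 9.94 ± 0.59, 1.02-fold with an interval of 0.669 to 1.55. HACD3 was 6.94 ± 0.45 and 7.01 ± 0.46, 0.954-fold with an interval of 0.655 to 1.39. SCD5 was 5.89 ± 0.74 and 6.13 ± 0.31, 0.844-fold with an interval of 0.548 to 1.30. In each gene the difference was smaller than the spread between animals of a group. The intervals reach down to 0.548-fold and up to 1.59-fold, so a moderate change in either direction was not detectable with these animals. In limma with Benjamini-Hochberg adjustment over 3255 probe sets, the adjusted p was 0.999 for each of the 4.

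In that comparison limma called 0 probe sets at an adjusted p under 0.05, which is 0% of those tested, and 128, or 3.93%, at an unadjusted p under 0.05, with 2.03% higher in high-oleic animals. None of the 4 enzymes was among the 128. Over all 6435 ways to divide the animals into 7 and 8, the exact permutation test also called 0 after adjustment and 136 before it. Its unadjusted two-sided exact p was 0.932 for FASN, 0.831 for ACACA, 0.431 for SCD5 and 0.771 for HACD3. SCD5 kept a lower high-oleic mean whichever single animal was left out, with differences of -0.38 to -0.11 on the log2 scale. The sign turned for FASN in 7 of these 15 fits, for ACACA in 3 and for HACD3 in 2.

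Live weight at slaughter differed between the diets, at 109.2 ± 3.52 kg (SD, n = 8) in high-oleic animals and 117.2 ± 7.32 kg (SD, n = 7) in controls (two-sided exact permutation p = 0.00435). The slope of each gene on live weight was therefore taken at fixed diet. ACACA had the steepest slope of the 4, at 0.99 on the log2 scale per 10 kg (SE 0.28, 95% interval 0.40 to 1.57), which is 1.98-fold per 10 kg. FASN, the next enzyme of the path, had a slope of 0.58 per 10 kg (SE 0.25, 95% interval 0.05 to 1.11), or 1.49-fold. Neither slope passed the test, with a limma adjusted p of 0.916 for both and unadjusted p of 0.0022 and 0.0341. By unadjusted p, ACACA ranked 6 and FASN 81 among the 3255 probe sets.

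The later enzymes had flatter slopes. SCD5 had a slope of 0.21 per 10 kg (SE 0.29, 95% interval -0.40 to 0.82) and HACD3 one of -0.11 (SE 0.25, 95% interval -0.64 to 0.42). Leaving out single animals moved the SCD5 slope between 0.089 (without high-oleic animal 1) and 0.37 (without high-oleic animal 7), while the HACD3 slope ran from -0.27, with control animal 5 left out, to -0.032, with high-oleic animal 7 left out. Their unadjusted p was 0.480 and 0.657, and the limma adjusted p 0.921 and 0.933. In limma 0 of 3255 probe sets, or 0%, had a slope with an adjusted p under 0.05. The unadjusted p was under 0.05 for 124, or 3.81%; 81 of these, 2.49% of all, had a positive slope, and ACACA and FASN were among them.

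Within each diet the ACACA slope was positive. In control animals it was 0.91 per 10 kg (SE 0.34, least squares, n = 7), and in high-oleic animals 1.28 (SE 0.59, n = 8). For FASN the slopes were 0.52 (SE 0.28) and 0.79 (SE 0.51), for SCD5 0.28 (SE 0.14) and -0.04 (SE 0.86), and for HACD3 -0.06 (SE 0.28) and -0.31 (SE 0.51). The difference between the diets' slopes had a 95% interval of -1.08 to 1.84 for ACACA and -1.07 to 1.60 for FASN. For SCD5 that interval was -1.83 to 1.20 and for HACD3 -1.58 to 1.08. The SCD5 slope difference, -0.31 per 10 kg, rested on single animals, at -1.16 without high-oleic animal 1 and 1.01 without high-oleic animal 7. The limma adjusted p of the slope difference was 0.996 for each of the 4, in a fit that called 0% of all probe sets, or 4.98% at an unadjusted p under 0.05 (1.57% with the steeper slope in high-oleic animals).

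The heaviest pig, control animal 5 at 133 kg, carried the highest ACACA signal. Without it the ACACA slope was 1.47 and the FASN slope 0.97 per 10 kg, both steeper than with it. Over the 15 fits that each left out 1 animal, the ACACA slope lay between 0.92 and 1.47 with an unadjusted p of 0.00134 to 0.011, and that of FASN between 0.49 and 0.97 with an unadjusted p of 0.0147 to 0.0727. Without control animals 5 and 6 together they were 1.11 and 0.72. A correlation over all 15 animals, which ignores diet, gave r = 0.604 for ACACA with live weight (permutation p = 0.011, adjusted p = 0.0441 over 4 genes) and rho = 0.536 (permutation p = 0.0425). Without control animal 5 and high-oleic animal 1, the farthest from the median weight, r fell to 0.327, so this pooled relation rested on those animals. Within the diets r was 0.763 in control animals (exact permutation p = 0.0165) and 0.663 in high-oleic animals (exact permutation p = 0.0687). For FASN the pooled r was 0.446 (permutation p = 0.0878, adjusted p = 0.176) and rho 0.379 (permutation p = 0.166), or r = 0.119 without those animals. Its r was 0.642 in control animals (exact permutation p = 0.0776) and 0.530 in high-oleic animals (exact permutation p = 0.181). For SCD5 and HACD3 the pooled r was 0.288 (permutation p = 0.302) and -0.062 (permutation p = 0.842), with rho of 0.148 (permutation p = 0.596) and -0.025 (permutation p = 0.934) and adjusted p of 0.403 and 0.842.

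**Figure D2:**
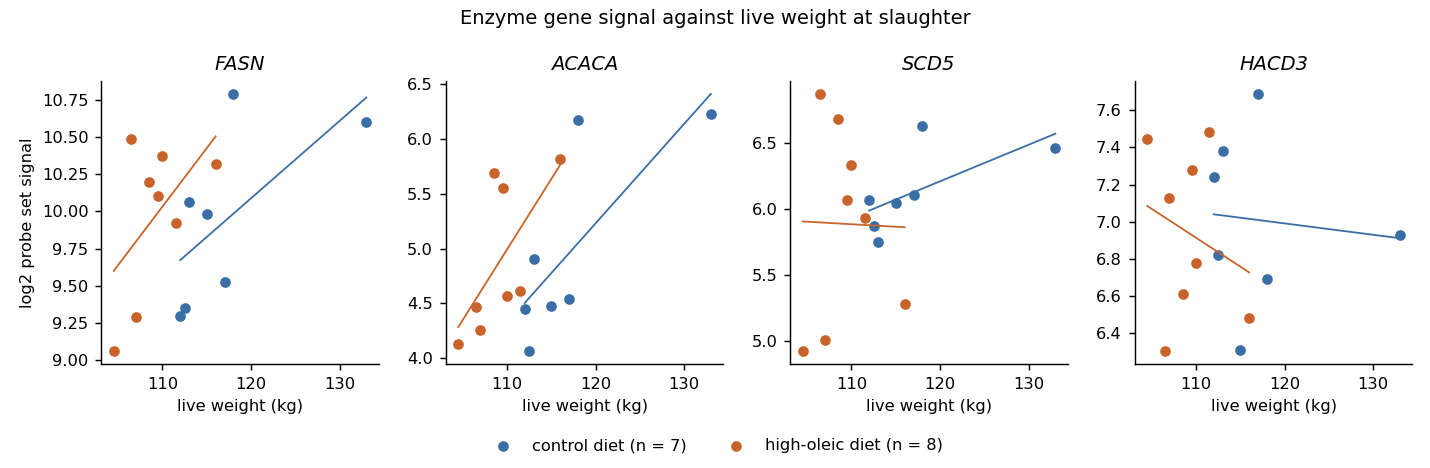
Log2 probe set signal against live weight at slaughter in kg, 1 point per animal, with the least-squares line of each diet. The ACACA and FASN lines rise in both diets, with ACACA slopes of 0.91 and 1.28 per 10 kg, while the high-oleic SCD5 line, at -0.04, changes sharply when high-oleic animal 1 or 7 is left out.

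With live weight in the fit, the high-oleic minus control difference moved upward for ACACA and FASN. It was 0.70 for ACACA (SE 0.37, 95% interval -0.07 to 1.47) and 0.49 for FASN (SE 0.33, 95% interval -0.21 to 1.19). SCD5 stood at -0.08 (95% interval -0.88 to 0.72) and HACD3 at -0.16 (95% interval -0.86 to 0.54). None passed, with a limma adjusted p of 0.9995 for each, in a fit that called 0% of probe sets, or 2.98% at an unadjusted p under 0.05 (1.9% upward). Leaving out single animals gave 0.57 to 0.91 for ACACA and 0.38 to 0.66 for FASN. The weights that both diets covered ran from 112 to 116 kg and held 4 control animals and 1 high-oleic animal, so a difference at equal weight rests on the fitted slope. The wider range of 109.5 to 118 kg held 6 control and 4 high-oleic animals, of which the high-oleic were still mostly lighter. It left out control animal 5 and high-oleic animals 1, 2, 6 and 8. The differences without a weight term were 0.37 for ACACA and 0.35 for FASN, with SCD5 at -0.17 and HACD3 at -0.01. None passed, with a limma adjusted p of 0.997 for each and unadjusted p of 0.373 for ACACA and 0.281 for FASN. The part of the animals left out was not tested.

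The enzymes of synthesis moved together from animal to animal. FASN and ACACA correlated at r = 0.755 over the 15 animals (95% interval 0.395 to 0.914, permutation p = 0.0016, adjusted p = 0.0096 over the 6 pairs), with rho = 0.779 (permutation p = 0.00124, adjusted p = 0.00744). The lowest FASN signal of the 5 animals above the ACACA gap was 10.10, a cut thus taken from these same values. Below the gap, 8 of 10 animals had less FASN than that, and the exceptions were high-oleic animals 5 and 8, with FASN of 10.37 and 10.49 but ACACA of 4.57 and 4.47. Among those 10 animals alone r was 0.640 (permutation p = 0.0466) and rho 0.661 (permutation p = 0.0452), and the 5 above are too few for a correlation. These 10 were picked by their ACACA values after seeing them, and both p-values are unadjusted, so they are a description only. Within diets r was 0.927 in control animals (exact permutation p = 0.00456) and 0.551 in high-oleic animals (exact permutation p = 0.164), a difference that was not tested. Without high-oleic animals 1 and 2, the farthest from the median in FASN, r was 0.702, and without high-oleic animal 8 it was 0.846.

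FASN and SCD5 also rose and fell together, at r = 0.673 (95% interval 0.245 to 0.881, permutation p = 0.00564, adjusted p = 0.0169) and rho = 0.704 (permutation p = 0.00429, adjusted p = 0.0129). High-oleic animals 1 and 2 were the lowest of all animals for both genes. Without them r was 0.436 (permutation p = 0.136), so the strength of the pooled relation depended in part on these animals. The adjusted permutation p was 0.0934 without high-oleic animal 1 alone and 0.0539 without animal 2 alone. High-oleic animal 7 went the other way, with FASN at 10.32 and SCD5 at 5.28, and without it r was 0.798. Within diets r was 0.716 in control animals (exact permutation p = 0.07) and 0.790 in high-oleic animals (exact permutation p = 0.0185).

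HACD3 ran opposite to FASN, at r = -0.548 (95% interval -0.828 to -0.050, permutation p = 0.0372, adjusted p = 0.0744) and rho = -0.564 (permutation p = 0.031, adjusted p = 0.0619), which did not pass after adjustment. Within diets r was -0.378 in control animals (exact permutation p = 0.398) and -0.718 in high-oleic animals (exact permutation p = 0.0443). The remaining pairs did not pass either. ACACA and SCD5 had r = 0.386 (permutation p = 0.154, adjusted p = 0.184) and rho = 0.424 (permutation p = 0.117), with r of 0.833 in control animals (exact permutation p = 0.0343) and 0.255 in high-oleic animals (exact permutation p = 0.516). ACACA and HACD3 had r = -0.251 (permutation p = 0.367, adjusted p = 0.367) and rho = -0.164 (permutation p = 0.562). SCD5 and HACD3 had r = -0.400 (permutation p = 0.139, adjusted p = 0.184) and rho = -0.402 (permutation p = 0.138). Without the 2 farthest animals these were 0.187, -0.212 and -0.288, and FASN with HACD3 was -0.482. Within control and high-oleic animals, r was -0.164 and -0.364 for ACACA with HACD3, and -0.292 and -0.526 for SCD5 with HACD3.

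Pairs of probe sets in this table often correlated, which sets the background. Over all 5295885 pairs of tested probe sets the median r was 0.0158, and the 5th and 95th percentiles were -0.574 and 0.623. An r at least as high as that of FASN with ACACA occurred in 1.47% of pairs, and one at least as high as that of FASN with SCD5 in 3.37%. An r as low as that of FASN with HACD3 occurred in 6.06%. After diet and live weight were removed by least squares, r was 0.602 for FASN with ACACA, 0.725 for FASN with SCD5 and -0.579 for FASN with HACD3. In those residuals 6.84% of all pairs reached the first value and 2.58% the second.

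**Figure D3:**
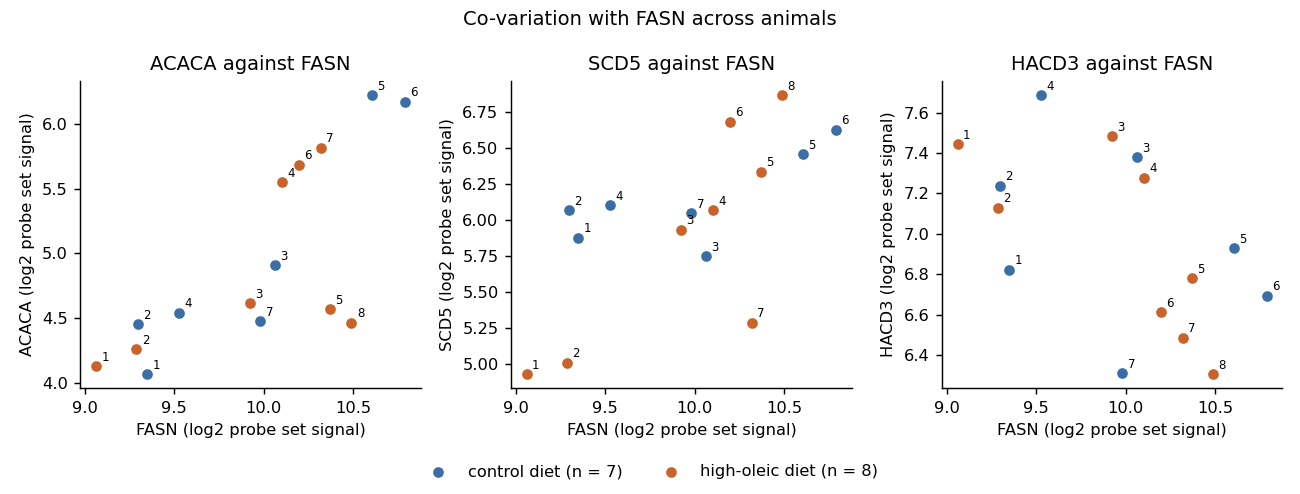
ACACA, SCD5 and HACD3 against FASN, all as log2 probe set signal, 1 point per animal with its number, coloured by diet. ACACA and SCD5 are higher where FASN is higher (r = 0.755 and 0.673), with high-oleic animals 5 and 8 low in ACACA and high-oleic animal 7 low in SCD5, and HACD3 slopes downward (r = -0.548).

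Signal of bacterial transcripts spiked into the RNA, measured on 7 control probe sets, was set against the 4 genes. Their mean had a correlation with FASN of r = 0.644 (permutation p = 0.00796) and rho = 0.707 (permutation p = 0.00408), with SCD5 of r = 0.593 (permutation p = 0.0193) and rho = 0.602 (permutation p = 0.019), and with HACD3 of r = -0.689 (permutation p = 0.00388) and rho = -0.700 (permutation p = 0.00529). ACACA had r = 0.231 (permutation p = 0.409) and rho = 0.457 (permutation p = 0.0878). Over the 48 relations computed between the 4 genes and 12 measures of the whole array, the adjusted p of r was 0.0782 for FASN and HACD3, 0.132 for SCD5 and 0.701 for ACACA, so none passed. On ranks FASN passed, at an adjusted p of 0.049, and HACD3 and SCD5 did not, at 0.0508 and 0.140. Without the 2 animals farthest from the median spiked signal, r was 0.602 for FASN, 0.497 for SCD5, -0.738 for HACD3 and 0.397 for ACACA. Within the high-oleic diet HACD3 had r = -0.935 with the spiked signal, and within the control diet -0.280. An r as low as that of HACD3 was found in 6.18% of all probe sets and one as high as that of FASN in 13.5%.

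With the spiked signal removed by least squares, FASN with ACACA had r = 0.814, FASN with SCD5 0.472 and FASN with HACD3 -0.187. The first of these relations was thus as strong without the spiked signal, and the other two were weaker. With the first component removed they were 0.747, 0.434 and -0.345. With the spiked signal as a covariate, the slope on live weight was 0.95 per 10 kg for ACACA and 0.44 for FASN, and the diet difference was -0.48 for SCD5. The first component itself correlated with FASN at r = 0.651 (permutation p = 0.00568, adjusted p = 0.0782; rho = 0.721, permutation p = 0.00327, adjusted p = 0.049) and with SCD5 at r = 0.647 (permutation p = 0.00815, adjusted p = 0.0782; rho = 0.785, permutation p = 0.00092, adjusted p = 0.0252). An r as high was found in 14.3% of all probe sets for FASN and 14.6% for SCD5. The difference between the 3′ and 5′ actin control probe sets, a measure of RNA integrity, had r = 0.387 with SCD5 (permutation p = 0.154, adjusted p = 0.463; rho = 0.599, permutation p = 0.0204, adjusted p = 0.140) and r = 0.261 with FASN (permutation p = 0.347, adjusted p = 0.678; rho = 0.425, permutation p = 0.116, adjusted p = 0.328). Its part in the relation of FASN with SCD5 was not tested.

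**Figure D4:**
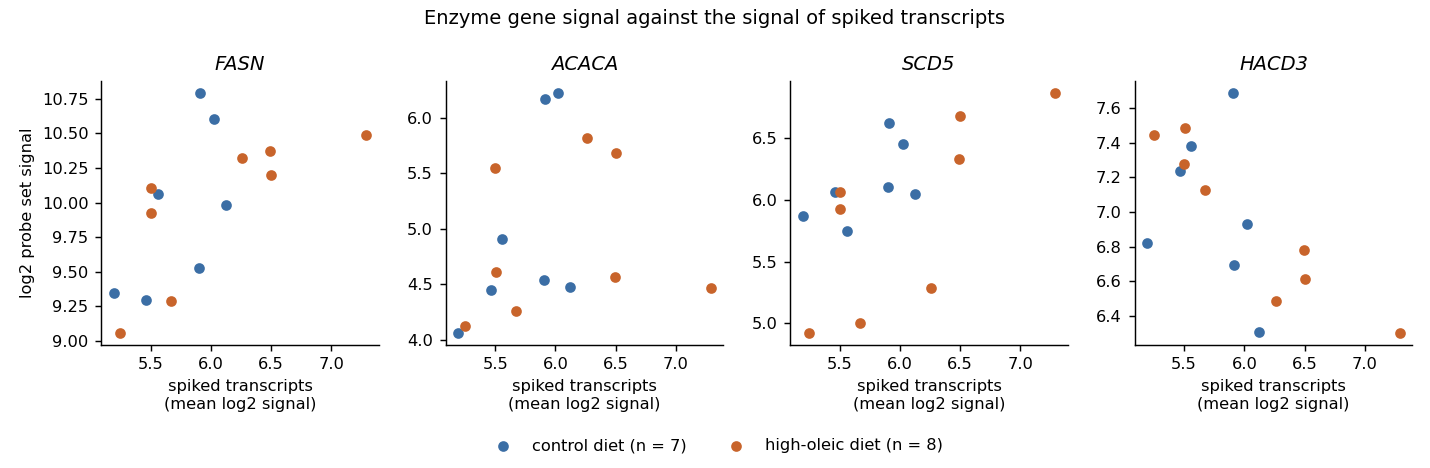
Log2 probe set signal of each gene against the mean log2 signal of 7 probe sets for spiked bacterial transcripts, 1 point per animal, coloured by diet. The points of FASN and SCD5 run upward (r = 0.644 and 0.593), those of HACD3 downward (r = -0.689) and those of ACACA have r = 0.231; no r passed after adjustment.

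Markers of lymphocytes ran opposite to ACACA. Of 11 listed lymphocyte markers 3 were in the table: the T-cell genes CD2, CD3E and CD8A. Their score, the mean over these genes of the log2 value minus the gene's mean, lay between -0.69 and 0.81 in control animals and between -0.40 and 1.19 in high-oleic animals. It correlated with ACACA at r = -0.749 (permutation p = 0.00131, adjusted p = 0.0629 over the 48 relations) and rho = -0.768 (permutation p = 0.00105, adjusted p = 0.0252), and at -0.763 without the 2 farthest animals. Within diets r was -0.819 in control and -0.692 in high-oleic animals. FASN had r = -0.605 with the score (permutation p = 0.0161, adjusted p = 0.129) and rho = -0.586 (permutation p = 0.0242), and r = -0.422 without the 2 farthest animals. Gene by gene, given without a test, r with ACACA was -0.824 for CD8A, -0.548 for CD2 and -0.378 for CD3E. With FASN these were -0.717, -0.579 and 0.040, so CD3E did not go with FASN. CD8A lay between 3.49 and 5.12 over the animals, CD2 between 2.52 and 6.81 and CD3E between 2.01 and 3.59. The lowest value in the table was 1.49, so CD3E was close to it and no marker could be at 0. The score had r = -0.565 with live weight in control and -0.530 in high-oleic animals, and its part in the ACACA slope was not tested. In bulk tissue, fewer cells of a type and less RNA per cell cannot be told apart.

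No other marker list had a relation with the enzymes that passed. For skeletal muscle, of which 12 of 25 markers were measured, the score lay between -2.10 and 3.09 in control animals and between -1.63 and 2.64 in high-oleic animals. It correlated with ACACA at r = 0.483 (permutation p = 0.0686, adjusted p = 0.318; rho = 0.496, permutation p = 0.0625) and with FASN at r = 0.308 (permutation p = 0.264, adjusted p = 0.604; rho = 0.518, permutation p = 0.0512). Without the 2 farthest animals r was 0.663 for ACACA and 0.652 for FASN. The muscle score had r = 0.358 with live weight in control and 0.621 in high-oleic animals, and its part in the ACACA and FASN slopes was not tested. For adipocytes, with LEP and PNPLA2 alone, r was 0.404 with FASN (permutation p = 0.135, adjusted p = 0.462; rho = 0.350, permutation p = 0.201) and 0.332 with ACACA (permutation p = 0.226, adjusted p = 0.541; rho = 0.296, permutation p = 0.281). Without the 2 farthest animals r with the adipocyte score was 0.375 for FASN and 0.103 for ACACA. For the interferon response, with 10 of 10 genes measured, r was -0.474 with FASN (permutation p = 0.0748, adjusted p = 0.318) and rho -0.386 (permutation p = 0.157). With ACACA the interferon score had r = -0.460 (permutation p = 0.0745, adjusted p = 0.318) and rho = -0.339 (permutation p = 0.218). Without the 2 farthest animals these r were -0.058 for FASN and -0.227 for ACACA. Of the 48 relations, 0 passed on Pearson's r and 4 on ranks: FASN and SCD5 with the first component, FASN with the spiked signal and ACACA with the lymphocyte score. The lists for smooth muscle and pericytes (9 of 12 measured), endothelium (4 of 9), fibroblasts and matrix (4 of 9), macrophages (5 of 11) and erythroid cells (3 of 5) had no relation with any of the 4 genes that passed either. Within high-oleic animals alone, the smooth muscle and pericyte score had r = 0.902 with SCD5, against 0.155 in control animals. This was the largest within-diet r of any marker score, was noticed in the values and was not tested. Over all animals r was 0.341 (permutation p = 0.212, adjusted p = 0.541). The score lay only between -0.40 and 0.14 in high-oleic animals, against -0.44 to 1.30 in control animals. HACD3 with the skeletal muscle score had r = -0.821 in high-oleic and 0.393 in control animals, also not tested.

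Around these enzymes, 12 of the 99 listed genes of fatty acid synthesis and its supply, use and control were in the table, including the 4 themselves. In limma 0 of the 12 passed for diet in either direction and 0 for live weight. For diet, 5 of the 12 had an estimate above 0 and 7 below, with a median of -0.04 against -0.03 over all probe sets. For live weight 9 were above 0 and 3 below, with a median slope of 0.23 against 0.04 over all probe sets. These counts include the 4 enzymes. Of the other 8 genes, 6 had a slope above 0 and 2 below, with a median of 0.19, and 0 had a limma unadjusted p under 0.05. The other listed genes, among them SCD, ACLY and the elongases of the ELOVL family, were not analysed here.

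Of 11 listed genes that supply acetyl-CoA, 2 were measured and neither passed. ACSS2, which activates acetate, was 11.13 ± 0.33 in high-oleic animals and 11.36 ± 0.59 in controls on its brighter probe set, a difference of -0.23, and its other probe set differed by -0.21. DLAT, a subunit of pyruvate dehydrogenase, was 8.82 ± 0.24 and 9.30 ± 0.43, a difference of -0.48 (95% interval -0.95 to -0.0046, limma unadjusted p = 0.048, adjusted p = 0.999). It was the only one of the 12 with an unadjusted p under 0.05 for diet. At fixed live weight the ACSS2 difference had the other sign, at 0.029 and 0.058 on its probe sets, and that of DLAT was -0.24 (limma unadjusted p = 0.407). Over the 15 animals, given without a test, ACSS2 followed ACACA at r = 0.602 and FASN at r = 0.534, and DLAT followed ACACA at r = 0.520.

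In elongation and desaturation, HACD4, a relative of HACD3, differed by -0.0058 between diets and had r = 0.521 with HACD3. CYB5B, a cytochrome b5 of the outer mitochondrial membrane, differed by 0.15 and had r = 0.669 with FASN. Among the enzymes that use the fatty acids, DGAT1, which completes triglycerides, differed by 0.07, LPIN1, which makes diglyceride, by 0.22 and ACSL5, an acyl-CoA synthetase, by 0.14. DGAT1 had r = 0.722 with FASN, while LPIN1 and ACSL5 had 0.282 and -0.102. DGAT1 and CYB5B also followed the first component, at r = 0.779 and 0.744. PRKAA1, a catalytic subunit of the AMP-activated kinase that phosphorylates and inhibits acetyl-CoA carboxylase, differed by -0.21 and had r = 0.459 with ACACA.

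**Figure D5:**
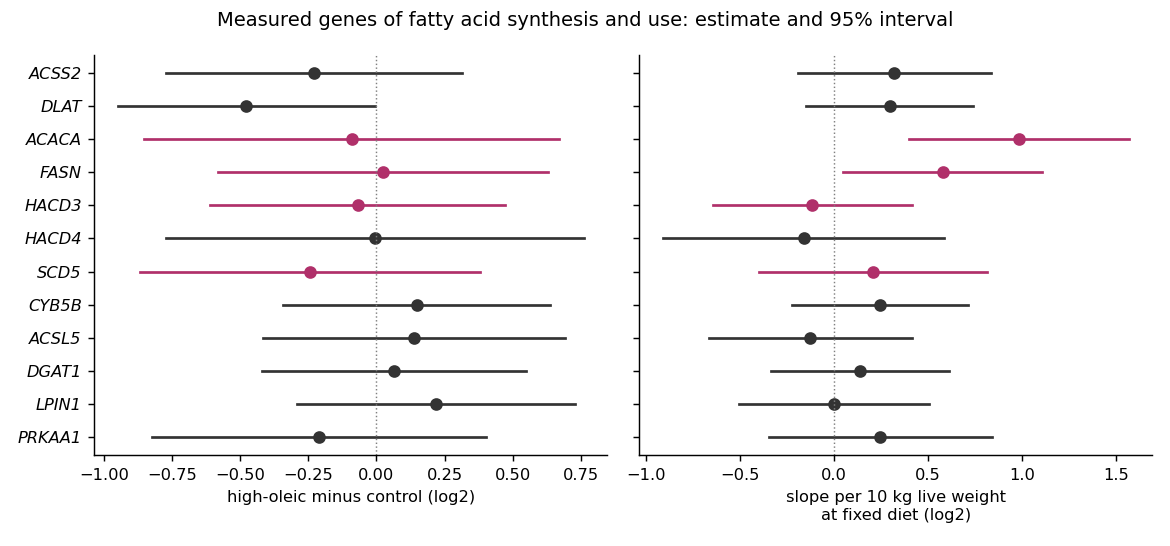
Estimates from limma with 95% intervals for the 12 measured genes of fatty acid synthesis and its supply, use and control, on the log2 scale: left, high-oleic minus control; right, slope per 10 kg of live weight at fixed diet; the 4 enzymes of interest are in red-violet. The ACACA and FASN slopes of 0.99 and 0.58 have intervals above 0 before adjustment, and no gene passed after it.

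The genes whose patterns were most like those of the enzymes were ranked by Pearson's r over the 15 animals among 1256 other named genes, on log2 values. Such a ranking picks extremes by design, so the values are given without a test. For ACACA the nearest were SNRPA1, a splicing factor (0.800), the sulfotransferase SULT2A1 (0.789), ADSSL1, an adenylosuccinate synthase (0.756), HSPA12A, a heat shock protein relative (0.749), and HLCS (0.733), the ligase that attaches biotin to carboxylases. SNRPA1 had a rho of 0.55 only, against 0.825 for SULT2A1. It was also dim, with means of 2.89 in control and 3.05 in high-oleic animals. HLCS had r = 0.773 in control and 0.674 in high-oleic animals. FASN stood at rank 4 of 1259 named genes in likeness to ACACA, while ACACA stood at rank 40 in likeness to FASN. The genes most opposed to ACACA were CD8A (-0.824), the chemokine CXCL9 (-0.798) and the cytidine deaminase APOBEC3B (-0.763).

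For FASN the nearest were PIR, which encodes pirin (0.887), the deacetylase HDAC6 (0.871), HDLBP, an RNA-binding protein (0.857), the ubiquitin ligase MKRN1 (0.844) and JAM3, a junctional adhesion molecule (0.832). The most opposed were the thrombin receptor F2R (-0.816), the cap methyltransferase CMTR2 (-0.793) and the chemokine CXCL12 (-0.782). HDLBP followed FASN at r = 0.992 in control animals and 0.823 in high-oleic animals. PIR also followed the first component, at r = 0.811, and HDAC6 less so, at 0.593.

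For SCD5 the nearest were JAM3 (0.888), the septin SEPT4 (0.822), the growth factor binding protein IGFBP5 (0.821), PTGFRN (0.821) and the chromatin remodeller CHD3 (0.815). JAM3 was thus among the nearest 5 of both FASN and SCD5. The nearest 5 of SCD5 also followed the first component, at r = 0.886 for PTGFRN, 0.865 for SEPT4, 0.794 for CHD3, 0.733 for JAM3 and 0.599 for IGFBP5. The most opposed were ZNF322 (-0.862), SLC33A1, a transporter of acetyl-CoA (-0.804), and LOC100739425 (-0.785). For HACD3 the nearest were FUBP3 (0.887), RDX, which encodes radixin (0.878), SH3BGRL2 (0.877), FBXL4 (0.875) and the membrane protease ADAM9 (0.861). These genes ran against the first component, from r = -0.737 for RDX to -0.438 for SH3BGRL2. The most opposed to HACD3 were VCL, which encodes vinculin (-0.848), AKAP13 (-0.844) and THADA (-0.825). FASN, SCD5 and ACACA stood at rank 1113, 931 and 696 of 1259 in likeness to HACD3.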

How the data were processed

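Expression in backfat of 15 pigs was measured with 1 Affymetrix array each. The authors deposited 1 log2 signal for each probe set and array. GCOS and GCRMA are named in the submitters' processing notes; what each did, and in which version, is not given in the sources used here. That the scale is log2 was read from the values, which lay between 1.49 and 14.36 and were not centred. No further normalization or filter was applied. The 17 control probe sets were left out, and adjusted p-values refer to the other 3255. Names came from the platform annotation (1455 probe sets with 1 symbol, 27 with several, 1773 with none); the 4 genes matched RefSeq entries of Sscrofa11.1 by gene ID.

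Diet (high-oleic minus control) and the slope on live weight with diet as a covariate were fitted with limma 3.58.1 in R 4.3.3 (two-sided, adjusted by Benjamini-Hochberg, threshold 0.05). Correlations used 100000 permutations, or all orders within a diet, two-sided, adjusted within each family. Their 95% intervals used Fisher's transformation. Named genes were the 4 enzymes, the measured genes of the fixed lists, and for each enzyme the 5 most and 3 least alike genes by Pearson's r, taking each gene's brightest probe set. The number of arrays limits the precision. Genes and lists were chosen with earlier results of these data known. Animal numbers recur in both diets. After its group mean was taken from each probe set, same-numbered animals correlated at -0.161 to 0.296 over the probe sets, and 4 of 7 pairs exceeded 0.1. The main fits did not pair them. This check cannot settle whether the numbers mark a shared order, since it averages over all probe sets. A block for the number, the replicate block, was 1 of the alternatives. Alternatives were other normalizations and filters, weights, covariates and animals left out. Scripts were tested on simulated data.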

Additional observations from a re-analysis of the deposited data

Results flagged for a closer look

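In 5 of 32 checks, which covered the 4 enzymes, live weight and the measures of the whole array within each diet, 1 animal lay far from its group; chance alone flags some such groups. None of the 5 was a value of ACACA, FASN, HACD3 or SCD5. Control animal 5 weighed 133 kg (the other controls had a median of 114 kg), and its ACACA signal was the highest of all at 6.22. High-oleic animal 8 had a first component of 48.6 (median of the others -12.7), with the highest SCD5 signal, 6.87, and the lowest HACD3 signal, 6.31. High-oleic animal 7 had a skeletal muscle score of 2.64 (median of the others -0.39), with ACACA at 5.82 and SCD5 at 5.28. Control animal 1 had an interferon score of 3.07 (median of the others -0.86) and the lowest ACACA signal, 4.07. High-oleic animal 2 had an interferon score of 2.89 (median of the others -0.25), with ACACA at 4.26 and FASN at 9.29. The part of these features in the enzyme values was not tested.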

How the results depend on the processing

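No diet difference or live weight slope of the 4 enzymes passed under any alternative run. The filter on dim probe sets removed ACACA, whose mean was 4.93, so it gave no ACACA value. The replicate block gave diet differences of -0.050 for FASN and 0.022 for HACD3, each with its sign turned. Both are the same as without high-oleic animal 8, whose number no control animal had. The block also turned the sign of the slopes of SCD5, at -0.17, and HACD3, at 0.11. It gave a FASN slope of 0.19 in place of 0.58 (limma unadjusted p = 0.495), while that of ACACA was 0.995. The cause of these slope changes, and of the changes below, was not tested. Array weights gave FASN -0.073 for diet. The spiked signal as a covariate gave 1 call for diet over all probe sets, diet differences of -0.19 for FASN and 0.11 for HACD3, and a HACD3 slope of 0.024. Animals of 109.5 to 118 kg gave ACACA 0.37 for diet and slopes of 1.61 for ACACA, 0.89 for FASN, -0.53 for HACD3 and -0.15 for SCD5. Live weight in the fit gave ACACA 0.70, and leaving out control animals 5 and 6 together, chosen after seeing the data, 0.40. Without a diet term 1 slope passed over all probe sets, and that of FASN was 0.35. Of the 2 pairs that passed, 1 did so after quantile normalization, after removal of the spiked signal and after removal of the first component (both removals chosen after seeing the data), where FASN with SCD5 had r = 0.540, 0.472 and 0.434. FASN with HACD3 passed after diet and live weight were removed (-0.579), and SCD5 with HACD3 was 0.0146 after the spiked signal.

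With each animal left out in turn, diet differences ran from -0.083 to 0.17 for FASN, -0.24 to 0.12 for ACACA and -0.19 to 0.045 for HACD3, and at fixed live weight from -0.18 to 0.18 for SCD5. Slope calls over all probe sets ran from 0 to 5 (5 without control animal 2), and calls of a slope difference from 0 to 5 (5 without high-oleic animal 1). The slope difference ran from -0.69 to 0.69 for FASN, -0.70 to 0.56 for ACACA, -1.16 to 1.01 for SCD5 and -0.53 to 0.31 for HACD3. Pairs that passed ran from 1 (without high-oleic animal 1 or 2) to 3 (without control animal 1), with r of 0.572 to 0.798 for FASN with SCD5 and -0.611 to -0.486 for FASN with HACD3. Relations with array-wide measures that passed ran from 0 to 3. FASN with ACACA passed in every such fit, at r of 0.695 to 0.846.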
